A study of Homo sapiens with 16 samples.

Results

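The regions described here are stretches of open chromatin that carried an ATAC-seq peak in every library and in which the peaks were taller with sorafenib than with DMSO. Overlapping peaks of the 4 deposited peak lists (chromosomes 1 to 22 and X) were joined into 220915 regions, of which 75610 held a peak in all 4 libraries. A region was a member when its mean fold enrichment over the local background with sorafenib was at least 1.3 times the DMSO mean and both sorafenib libraries lay above both DMSO libraries. The members were thus chosen by the deposited fold enrichment values. The rule gave 5006 members, which is 6.62% of the 75610 shared regions and 2.27% of all regions. That measure is therefore given below as a description and is not tested.

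The libraries are labelled as Huh7 cells, a line derived from a human liver cancer. The ATAC-seq groups were cells treated with sorafenib (2 libraries, numbered 3 and 4 in their titles, called Sorafenib 3 and Sorafenib 4) and cells treated with DMSO, the solvent (2 libraries, DMSO 1 and DMSO 2). The RNA groups were 3 sorafenib and 3 DMSO libraries, and 3 libraries of cells overexpressing MT1G with 3 of cells carrying the empty vector, called MT1G-OE and Vec. The labels give no dose, no time, and no word on whether the MT1G cells were 1 clone or a pool, and nothing says that libraries of a group came from separate cultures, so the p-values measure the spread between these libraries only. Sorafenib is an inhibitor of RAF, VEGF receptor and PDGF receptor kinases. MT1G is a metallothionein, a small protein that binds zinc and copper.

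ATAC-seq uses a transposase that cuts DNA where nucleosomes leave it exposed, so a peak marks an open promoter, enhancer or other factor-bound site. Immediate early genes such as FOS and EGR1 keep an open promoter in resting cells and are switched on within minutes of a kinase or stress signal. Their products, together with NF-kB factors, then bind the regulatory regions of later genes.

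Each list held between 131238 and 156757 peaks on these chromosomes, and the 6 RNA libraries of the sorafenib experiment held 16549330 to 21082356 reads each. The RNA did not carry the defining markers of hepatocytes: ALB, APOB and FOXA2 were at 0 in all 6 libraries of the sorafenib experiment, and AFP averaged 1.56 normalized read counts in sorafenib libraries and 0.964 in DMSO libraries. Of 9 hepatocyte markers, HNF4A alone passed 10 normalized read counts, at 117 with sorafenib and 340 with DMSO. LUM, a matrix proteoglycan gene of fibroblasts and stellate cells, averaged 447 with sorafenib and 1780 with DMSO, and COL1A1, a collagen gene of the same cells, 440 and 464. ACTA2, the other stellate cell marker looked at, was near 0, at 0.302 and 1.49. Of the endothelial markers, CDH5 averaged 19.9 with sorafenib and 50.8 with DMSO, and PECAM1 0.993 and 5.05. The leukocyte markers PTPRC, CD3E and CD68 averaged at most 1.17 in either group. These values put the cell line label in doubt, and the cells are called Huh7 here only as labelled. MT1G, the overexpressed gene, averaged 150 ± 25.9 normalized read counts in MT1G-OE cells and was at 0 in every Vec library (SD, n = 3 each).

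The promoters below belong to 7 genes with a member at their start, and are shown because they hold the letters of factors named in this text. Each is the 250 bases before the RefSeq transcript start (GRCh38.p14), written 5′ to 3′ on the gene's strand, and lies wholly inside its member region. Capitals mark the short CRE word TGACG, the full CRE TGACGTCA, the NF-kB core GGNANTTCC, the GC box GGGGCGGGG that KLF and SP factors bind, the interferon response letters GAAANNGAA and the CArG box bound by serum response factor, each on either strand.
EGR1 (chr5:138465229-138465478, plus strand): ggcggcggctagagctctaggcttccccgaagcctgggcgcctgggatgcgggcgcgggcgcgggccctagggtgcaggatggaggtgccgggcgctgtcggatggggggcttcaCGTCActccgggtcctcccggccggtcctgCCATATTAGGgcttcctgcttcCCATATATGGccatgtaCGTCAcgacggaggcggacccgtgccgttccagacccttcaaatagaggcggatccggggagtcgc
FOS (chr14:75278578-75278827, plus strand): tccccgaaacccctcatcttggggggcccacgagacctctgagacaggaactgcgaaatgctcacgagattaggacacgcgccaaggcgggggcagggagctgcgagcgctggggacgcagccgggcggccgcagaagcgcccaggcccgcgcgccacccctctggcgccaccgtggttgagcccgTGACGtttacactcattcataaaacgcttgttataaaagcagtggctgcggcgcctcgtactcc
KLF4 (chr9:107489770-107490019, minus strand): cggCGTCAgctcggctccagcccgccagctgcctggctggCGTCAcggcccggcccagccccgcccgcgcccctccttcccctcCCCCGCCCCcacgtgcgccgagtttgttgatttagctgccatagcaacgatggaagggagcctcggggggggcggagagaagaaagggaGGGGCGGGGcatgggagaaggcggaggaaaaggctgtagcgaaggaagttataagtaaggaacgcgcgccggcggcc
CXCL1 (chr4:73869143-73869392, plus strand): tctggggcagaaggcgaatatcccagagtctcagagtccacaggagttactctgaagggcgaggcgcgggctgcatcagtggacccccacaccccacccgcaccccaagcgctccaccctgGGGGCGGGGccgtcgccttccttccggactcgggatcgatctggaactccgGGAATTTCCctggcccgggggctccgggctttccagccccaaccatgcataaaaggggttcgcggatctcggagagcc
ICAM1 (chr19:10270870-10271119, plus strand): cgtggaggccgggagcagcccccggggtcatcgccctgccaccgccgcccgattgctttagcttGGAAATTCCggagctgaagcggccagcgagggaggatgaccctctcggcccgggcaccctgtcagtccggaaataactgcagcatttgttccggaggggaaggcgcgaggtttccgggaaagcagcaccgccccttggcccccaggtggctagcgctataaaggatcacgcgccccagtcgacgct
AREG (chr4:74444886-74445135, plus strand): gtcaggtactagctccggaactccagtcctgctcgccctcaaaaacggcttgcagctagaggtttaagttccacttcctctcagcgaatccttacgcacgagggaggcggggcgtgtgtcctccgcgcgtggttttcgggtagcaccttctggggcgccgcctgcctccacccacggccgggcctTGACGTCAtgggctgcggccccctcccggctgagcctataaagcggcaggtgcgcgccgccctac
IFIT3 (chr10:89332279-89332528, plus strand): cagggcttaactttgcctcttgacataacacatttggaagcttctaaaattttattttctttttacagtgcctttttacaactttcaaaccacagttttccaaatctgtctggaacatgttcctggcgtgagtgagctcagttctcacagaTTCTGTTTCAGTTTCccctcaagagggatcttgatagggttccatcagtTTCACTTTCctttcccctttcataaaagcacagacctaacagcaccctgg
The EGR1 window held CArG boxes whose first bases lay 105 and 83 bases before the start and short CRE words at 135 and 66. The FOS window held 1 short CRE word at 64 bases before the start, and the AREG window a full CRE at 65. In KLF4 the GC boxes began 166 and 77 bases before the start. The NF-kB core began 78 bases before the start in CXCL1 and 186 before it in ICAM1, and IFIT3 held interferon response letters at 99, 93 and 50 bases. The tallest points of the ATAC-seq peaks lay outside the printed bases for EGR1, KLF4 and AREG. They lay 393 to 405 bases before the start in EGR1 and 485 to 507 before it in KLF4. In AREG they lay 141 bases after the start in DMSO 1 and 409 to 440 after it in the other libraries. In ICAM1 they lay 73 to 94 bases before the start, inside the printed bases. In FOS, CXCL1 and IFIT3 some lay inside and some outside. The letters of the short CRE word, the NF-kB core, the CArG box and the interferon response were added to the search after these sequences had been seen, and AREG was chosen after its values were seen.

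Over all members, the ratio of the sorafenib mean to the DMSO mean ran from 1.3 to 5.31 with a median of 1.52. A ratio of 2 or more was seen in 653 members (13.0%) and of 3 or more in 100. Median fold enrichment in members was 9.24 in Sorafenib 3 and 9.02 in Sorafenib 4, against 4.91 in DMSO 1 and 6.05 in DMSO 2. Over all 75610 shared regions the order was the other way round, with medians of 8.26 and 8.12 in the sorafenib libraries and 9.31 and 11.8 in the DMSO libraries, and a median ratio of 0.841. Under the mirrored rule 27351 regions (36.2%) were less enriched with sorafenib, so members were the smaller class.

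**Figure D1:**
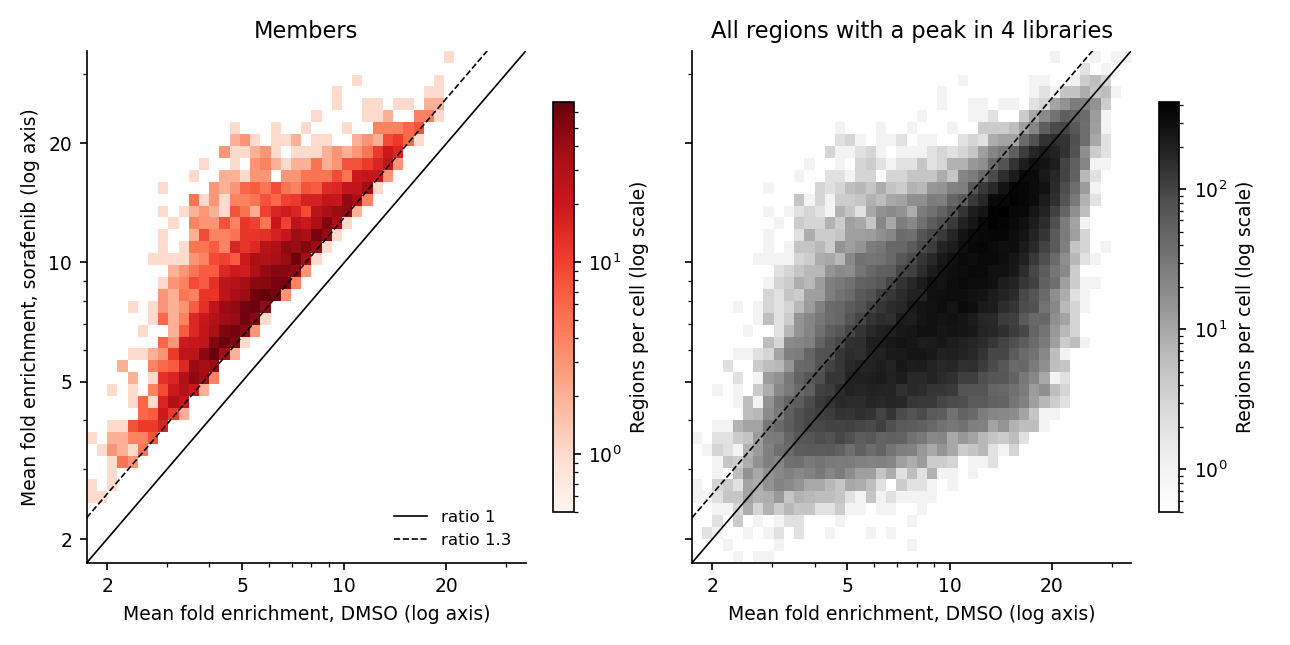
Mean fold enrichment with sorafenib (vertical axis) against DMSO (horizontal axis), both on log axes, for the 5006 members (left) and all 75610 shared regions (right); colour gives the number of regions per cell of the grid. The members lie above the dashed line of ratio 1.3, and most shared regions lie under the solid line of ratio 1, with a median ratio of 0.841.

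Members came mostly from the weaker DMSO peaks. The DMSO mean is the divisor in the ratio of the rule, so the rule itself favours weak DMSO peaks. With shared regions cut into 10 equal bins of DMSO mean, 28.0% of the lowest bin (1.79 to 5.05) were members, against 3.45% of the fifth bin and 0.106% of the highest. The sorafenib libraries of a member differed by a median of 11.5% and the DMSO libraries by 21.1%, and DMSO 2 was above DMSO 1 in 79.4% of members. The lower sorafenib value exceeded the higher DMSO value by a median factor of 1.27. Fold enrichment of weak peaks also moves in steps: 185 members had the one value 4.04 in DMSO 1. Dividing each library by its median over shared regions raised the number of members to 19359, and leaving out DMSO 2 raised it to 11895.

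The region nearest above the ratio threshold, chr9:86996960-86997485, had 10.2 and 7.57 in the sorafenib libraries and 6.36 and 7.30 in the DMSO libraries. The region nearest below it, chr9:76817471-76817838, had 7.98 and 9.36 with sorafenib and 6.75 and 6.59 with DMSO, so the values on either side of the line were alike. A further 4198 shared regions had both sorafenib libraries above both DMSO libraries at a ratio below 1.3.

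The 10 largest ratios ran from 4.15 to 5.31, and the 9 of these regions with a listed start on their chromosome lay 8.63 to 158 kb from it. The first, chr5:36458923-36459869, had 16.4 and 14.6 with sorafenib and 2.44 and 3.40 with DMSO, and its nearest listed start, of LOC124900963, was 42.7 kb away. The second, chr1:46238670-46239447, had 18.8 and 17.8 with sorafenib and 3.18 and 4.59 with DMSO and lay 8.63 kb from the start of RAD54L, a DNA repair helicase gene. Another, chr11:66650890-66651485, had 13.6 and 13.2 with sorafenib and 2.31 and 3.63 with DMSO and lay inside RBM4, an RNA-binding protein gene. In these 3 regions both sorafenib values were at least 3 times either DMSO value. Of the other 7, the regions at ratios 4.15 and 4.16 lay inside MYBPC2 and RAI2, and one on the X chromosome lay inside TEX11.

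The members with the highest sorafenib means, 27.2 to 33.6, were not among the 10 with the largest ratios. The highest, chr17:43251595-43251839, had 36.1 and 31.1 with sorafenib and 13.6 and 27.3 with DMSO. It lay 20.4 kb from its nearest listed start, of CCDC200. The next, chr1:125180001-125180508, sits beside the centromere and had 29.9 and 26.8 with sorafenib and 8.38 and 13.4 with DMSO. Another, chr21:8442227-8442534, is on the short arm of chromosome 21 and had 27.8 and 28.5 with sorafenib and 14.7 and 23.6 with DMSO. The member chr13:79451356-79452084 lay 29.4 kb from the start of NDFIP2 and had 29.0 and 25.5 with sorafenib and 13.8 and 21.6 with DMSO. One more lay inside GTF2IRD2B, a gene with near-identical copies on chromosome 7. Reads of repeated stretches can map to more than one place, and how such reads were handled is not given in the sources used here.

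Members were narrower and stood farther from starts than other shared regions, but nearer than regions less enriched with sorafenib. Median width was 557 bases for members, 738 for less enriched regions and 743 for the remaining 43253 shared regions. Over all peaks, median width was 285 and 280 bases in Sorafenib 3 and 4, and 449 and 384 in DMSO 1 and 2. The part of peak width and of the choice of weak DMSO peaks in the width of members was not tested. A RefSeq start lay within 1 kb of 674 members (14.0%), against 6.40% of less enriched regions, 23.7% of the remaining shared regions and 4.002% of the 14131 regions with peaks in both sorafenib libraries only. Median distance to the nearest start was 23.5 kb for members, 28.2 kb for less enriched and 16.1 kb for remaining shared regions. These shares leave out chromosome 8, whose starts were not used here, and they were described and not tested.

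**Figure D2:**
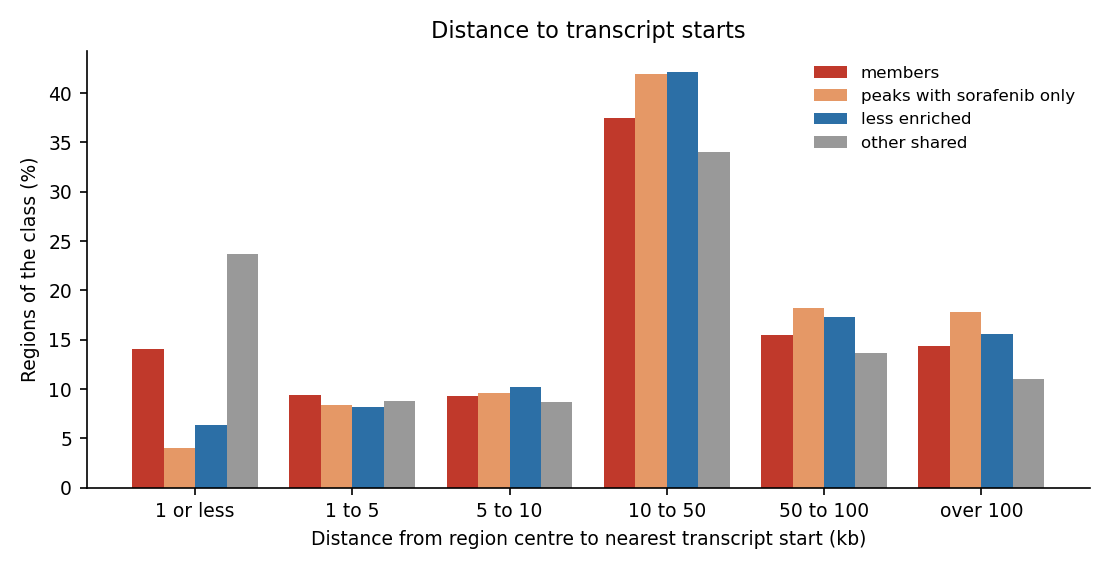
Share of regions (%, vertical axis) by the distance from the region's centre to the nearest RefSeq start (kb, horizontal axis), for members, regions with peaks in the sorafenib libraries only, less enriched regions and other shared regions. Members within 1 kb make up 14.0%, between the 6.40% of less enriched and the 23.7% of other shared regions.

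Members were found on every chromosome, from 5.86% of shared regions on chromosome 14 to 10.5% on chromosome 21. On chromosome 21 before 11 Mb, 9 of 23 shared regions were members, against 9.59% of the 699 regions beyond it. The highest share over 2 Mb windows was on the short arm of chromosome 5, where 11 of 32 shared regions between 2 and 4 Mb were members (34.4%), against a median of 6.12% over 1075 windows. The next window, 4 to 6 Mb, held 19 of 66.

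Over chr5:2000001-8000000 together, 45 of 170 shared regions were members (26.5%) and 17.1% were less enriched, against 6.70% and 37.1% on the rest of chromosome 5. Median fold enrichment in that stretch was 6.57 and 6.42 with sorafenib and 5.30 and 6.33 with DMSO, with both sorafenib medians above both DMSO medians. On the rest of the chromosome the medians were 7.98 and 7.85 with sorafenib and 9.24 and 11.7 with DMSO, with both DMSO medians higher. The stretch was chosen for its share of members, so these values describe it and are not tested. Its largest ratio, 2.95, was at chr5:3036081-3037193, with 10.2 and 10.5 with sorafenib and 2.88 and 4.14 with DMSO.

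Some genes held several members. RIMBP2, a gene for a presynaptic scaffold protein, had 7 shared regions along its span, of which 5 were members and none was less enriched. At chr12:130506853-130507216 the values were 12.2 and 9.07 with sorafenib and 3.76 and 3.34 with DMSO, and the other 4 members had ratios from 1.35 to 1.82. RIMBP2 RNA was 15.2, 28.1 and 27.8 normalized read counts in the sorafenib libraries and 0 in all 3 DMSO libraries, which is at least 7.45-fold higher against a floor of 3 reads per library (limma, adjusted p = 1.82e-06). PDE4D, a cAMP phosphodiesterase, held 8 members among 55 shared regions, and 28 of the 55 were less enriched. PDE4D RNA was 442, 434 and 442 with sorafenib and 1114, 1247 and 992 with DMSO, with no overlap (log2 change −1.34 ± 0.08 SE, limma adjusted p = 6.81e-10). Both genes were chosen after their values were seen.

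A promoter window, from 250 bases before to 50 after a RefSeq start, was touched by 562 members, or 11.7% of the 4801 on chromosomes with windows. The share was 15.2% over all shared regions and 5.26% over less enriched ones. At these promoters the tallest point of the peaks lay a median of 53.5 bases before the start, and before it in 73.3% of 663 pairs of a region and a gene. The 4 libraries' tallest points lay within 100 bases of each other in 65.9% of pairs.

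The promoter members carried 660 gene symbols, of which 537 were in the RNA tables, and 25 of these also had a less enriched promoter region and are counted apart. RNA of the remaining 512 was independent of the rule. Of them 427 passed a mean of 10 normalized read counts over the 6 libraries, and 159 rose and 162 fell with sorafenib (limma on log2 of the count plus 1, adjusted p under 0.05 over all 14915 genes). That is 37.2% higher and 37.9% lower. Over all genes tested 34.4% were higher and 35.8% lower, and over the 9382 tested genes with a promoter in any shared region 33.6% were higher and 39.4% lower, so the members' shares were near the background in both directions. The median log2 change was −0.02 for member promoters and −0.05 over genes with a shared promoter region. In these bulk libraries a change in the cells present and a change in RNA per cell cannot be told apart.

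For large changes the members' shares lay farther from those of shared promoters under the main rule, but for falls this did not hold under every choice of members. A log2 rise of at least 1 was called in 70 of the 427 genes (16.4%), beside 10.1% of tested genes with a promoter in a shared region, and a fall of at least 1 in 34 (7.96%), beside 5.88%. Over all genes tested, promoter or not, 14.6% rose and 6.87% fell by at least 1. These shares were described and not tested. At promoters of less enriched regions, 8.38% of 919 tested genes rose and 9.79% fell by at least 1. With members chosen without DMSO 2 the rise was called in 192 of 1498 linked genes (12.8%), and without DMSO 1 in 39 of 288 (13.5%). For falls the same choices gave 6.14% and 10.8%, each beside 5.87% of tested genes linked to any shared region. Without Sorafenib 3 the share of falls was 8.45% and without Sorafenib 4 it was 6.27%, each beside 5.90%. With members chosen after dividing each library by its median it was 5.31%, below the 5.88% of shared promoters. Median RNA level with DMSO was 495 normalized read counts for member genes and 633 for genes with a shared promoter region, and its part in these shares was not tested.

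**Figure D3:**
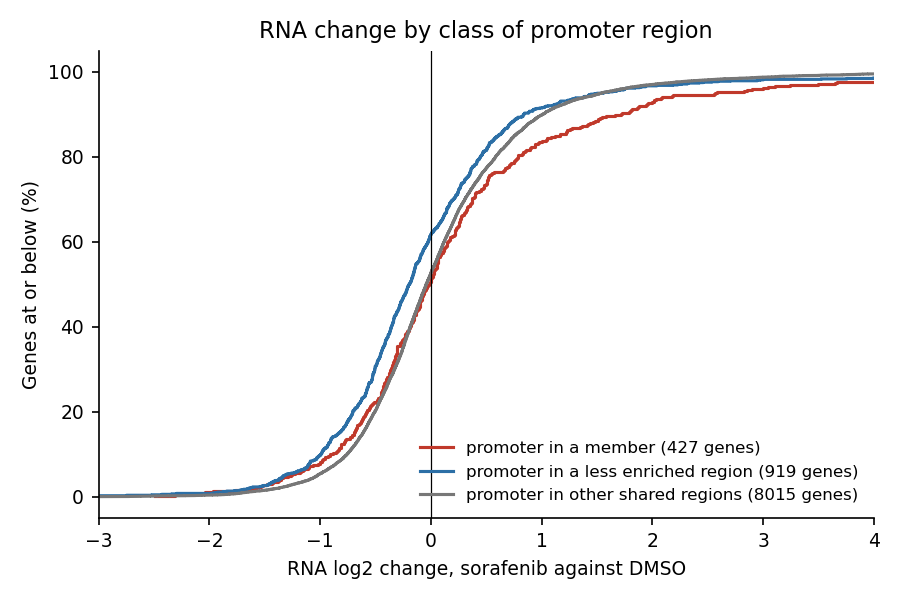
Share of genes (%, vertical axis) at or below each RNA log2 change with sorafenib against DMSO (horizontal axis, shown from −3 to 4), for 427 genes with a promoter in a member, 919 with a promoter in a less enriched region and 8015 with a promoter in other shared regions. The curves of members and other regions cross 0 close together, and the member curve runs lower on the right, where 16.4% of its genes rose by at least 1.

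Among immediate early genes the promoter changes were moderate and the RNA changes large. EGR1, a zinc-finger factor, had fold enrichment of 8.83 and 9.92 with sorafenib and 6.01 and 7.18 with DMSO at chr5:138463805-138465923. Its RNA was 867, 1068 and 944 normalized read counts in the sorafenib libraries and 17.997, 21.2 and 14.2 with DMSO, with groups far apart (log2 change 5.69 ± 0.15 SE, limma adjusted p = 1.98e-14). FOS, a partner in the AP-1 dimer, had 8.46 and 7.09 with sorafenib and 5.17 and 5.88 with DMSO at chr14:75278367-75279170. These values were not taken at the same point. The tallest points lay 320 and 28 bases before the start with sorafenib, and 48 after and 330 before it with DMSO. FOS RNA was 467, 468 and 471 with sorafenib and 31.5, 28.0 and 20.7 with DMSO (log2 change 4.10 ± 0.15 SE, limma adjusted p = 1.77e-12). In both genes every RNA library with sorafenib lay above every DMSO library.

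KLF4 and KLF6 are Krüppel-like factors that bind GC boxes, and KLF4 is named in the title of the series. The KLF4 promoter region, chr9:107489407-107490515, had 11.7 and 10.6 with sorafenib and 6.86 and 8.71 with DMSO, a ratio of 1.43. KLF4 RNA was 628, 632 and 695 with sorafenib and 83.2, 83.9 and 75.3 with DMSO (log2 change 3.00 ± 0.10 SE, limma adjusted p = 4.87e-13). The KLF6 region had 8.79 and 9.21 with sorafenib and 4.78 and 8.40 with DMSO, so that DMSO 2 lay close under the sorafenib libraries. KLF6 RNA was 3088, 3320 and 2967 with sorafenib and 468, 448 and 404 with DMSO (log2 change 2.83 ± 0.07 SE, limma adjusted p = 1.44e-14).

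**Figure D4:**
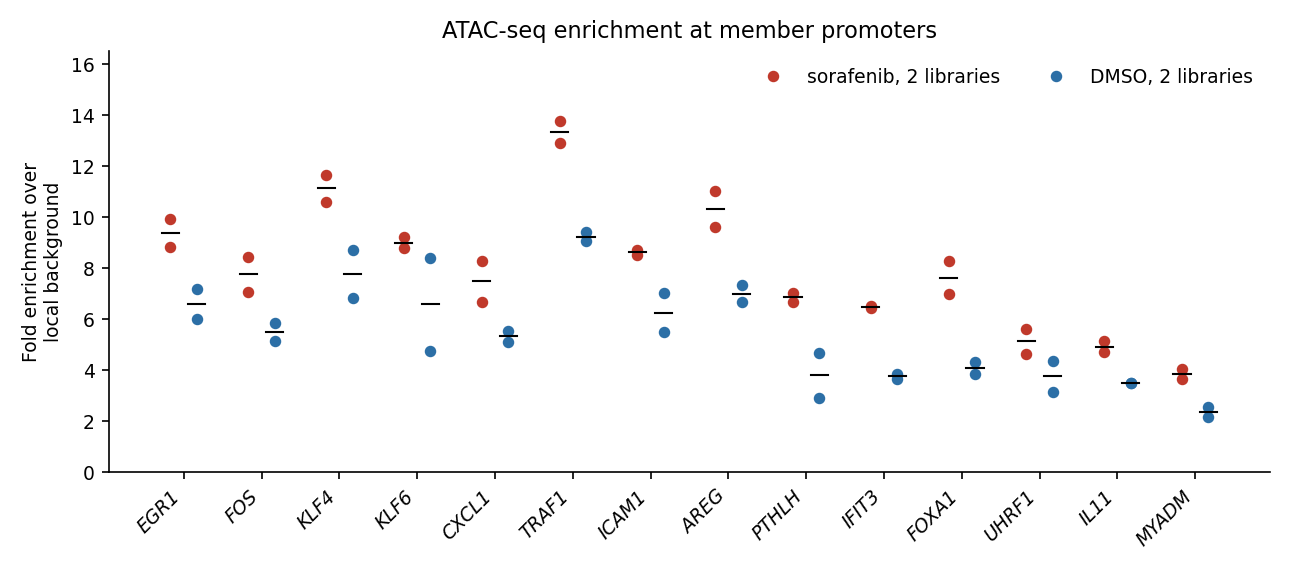
Fold enrichment over local background (vertical axis, linear) at 14 promoter members, with 2 sorafenib libraries on the left and 2 DMSO libraries on the right of each gene; black bars are group means. EGR1 shows 8.83 and 9.92 with sorafenib against 6.01 and 7.18 with DMSO, and the KLF6 point of DMSO 2, at 8.40, lies just under its sorafenib points.

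Of the 15 immediate early factors listed, 9 had a promoter in a shared region and 3 of these were at members, EGR1, KLF4 and KLF6, beside 4.97% of all genes with a promoter in a shared region. Of 13 tested, 10 rose and 1 fell, beside 34.4% higher and 35.8% lower over all genes tested. Of 12 AP-1 factors, 7 had a shared promoter region, FOS alone was at a member and 9 of 11 tested rose, while 2 fell. FOSB, JUNB, IER2, IER5 and NR4A2 had a member within 2 kb of the gene's span without one at the promoter window. Links of that kind were found for 2773 genes in all, so they are not read as a result about these lists. No less enriched region touched a promoter of either list.

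Among inflammatory genes, CXCL1 encodes a neutrophil chemokine and had 6.69 and 8.29 with sorafenib and 5.12 and 5.55 with DMSO at chr4:73868858-73869681. The tallest points of its peaks differed, at 350 and 109 bases before the start with sorafenib and 275 and 137 with DMSO. CXCL1 RNA was 316, 341 and 335 with sorafenib and 15.7, 9.64 and 17.5 with DMSO (log2 change 4.48 ± 0.20 SE, limma adjusted p = 1.17e-11). ICAM1, a leukocyte adhesion receptor, had 8.53 and 8.73 with sorafenib and 5.49 and 7.04 with DMSO, and its RNA rose by a log2 of 2.19 ± 0.07 SE (limma adjusted p = 1.87e-13). TRAF1, an adaptor of TNF receptor signalling, had the tallest promoter peaks of the 3, at 13.8 and 12.9 with sorafenib and 9.07 and 9.43 with DMSO. TRAF1 RNA was 460, 457 and 433 with sorafenib and 19.1, 21.2 and 20.7 with DMSO, but another TRAF1 start lay in a less enriched region, so the gene is outside the count of 427. These 3 were the members among 15 NF-kB and inflammatory genes with a shared promoter region, beside 4.97% of all genes with such a promoter. IL1A and TRAF1 had a promoter in a less enriched region, beside 11.1% of all genes with a shared promoter region. Of the 20 genes listed 19 rose and 1 fell, beside 34.4% higher and 35.8% lower over all genes tested.

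The remaining genes among the 10 largest rises had various roles. PTHLH, parathyroid hormone-like hormone, had 7.02 and 6.70 with sorafenib and 2.93 and 4.68 with DMSO, and its RNA was 248.98, 203 and 226 with sorafenib and 33.7, 39.5 and 20.7 with DMSO (log2 change 2.86 ± 0.20 SE, limma adjusted p = 3.28e-09). EDN1, the vasoconstrictor endothelin-1, rose by a log2 of 2.57 ± 0.10 SE with a promoter ratio of 1.46. AREG, an EGF receptor ligand outside those 10, had 11.03 and 9.63 with sorafenib and 7.34 and 6.68 with DMSO. AREG RNA was 76.0, 82.5 and 125 with sorafenib and 30.4, 24.1 and 27.3 with DMSO. ERRFI1, an inhibitor of the EGF receptor, rose by 2.58 ± 0.10 SE at a promoter ratio of 1.31. SLC44A2, a choline transporter-like protein, rose by 3.50 ± 0.08 SE and FAM189A2 by 3.04 ± 0.20 SE, completing the 10 largest rises among genes with a mean of at least 100.

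**Figure D5:**
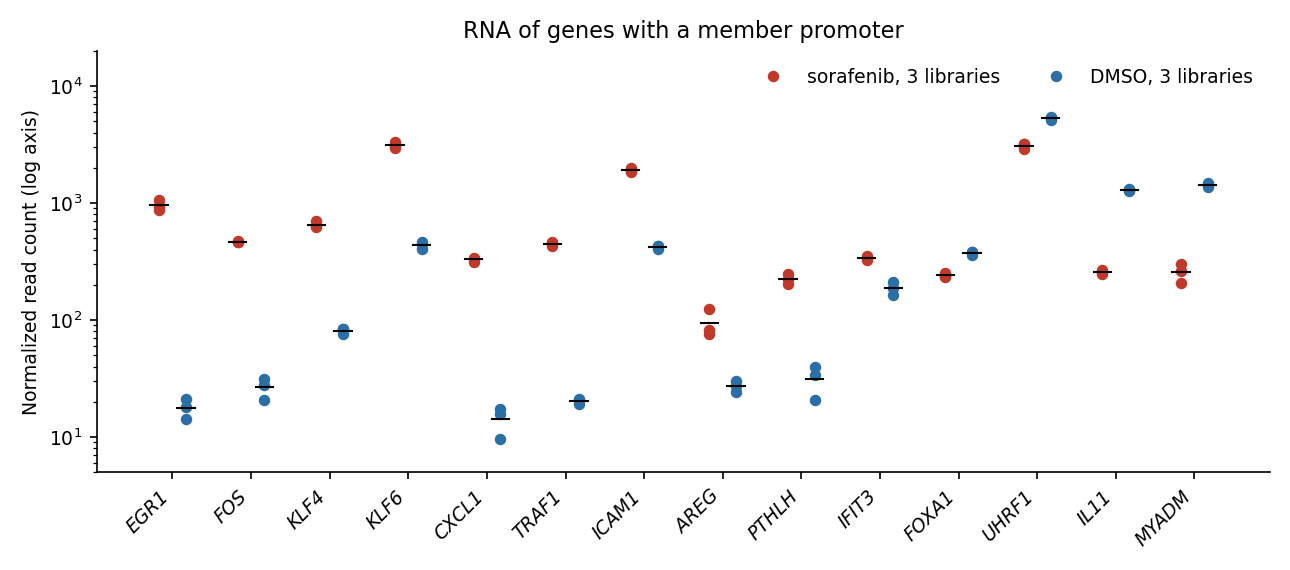
Normalized read counts of RNA (vertical axis, log scale) for the same 14 genes, with 3 sorafenib libraries on the left and 3 DMSO libraries on the right of each gene; black bars are group means. EGR1 lies at 867 to 1068 with sorafenib and at 14.2 to 21.2 with DMSO, whereas FOXA1, UHRF1, IL11 and MYADM lie lower with sorafenib.

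The same rule also gave genes whose RNA fell. MYADM, a myeloid-associated membrane protein, had 3.67 and 4.07 with sorafenib and 2.57 and 2.19 with DMSO, and its RNA was 207, 261 and 301 with sorafenib and 1432, 1372 and 1484 with DMSO (log2 change −2.49 ± 0.11 SE, limma adjusted p = 1.06e-11). IL11, a cytokine of the IL-6 family, had 5.13 and 4.71 with sorafenib and 3.49 and 3.49 with DMSO, and RNA of 257, 269 and 250 with sorafenib and 1319, 1285 and 1256 with DMSO (log2 change −2.31 ± 0.07 SE, limma adjusted p = 2.25e-13). For both genes the RNA was lower in each sorafenib library than in any DMSO library. The other large falls were ADGRG6, an adhesion receptor (−2.04), AMIGO2, a cell adhesion protein (−1.97), MADD (−1.77), AMOTL1, an angiomotin family protein (−1.59), ATP1B1, a sodium pump subunit (−1.57), GPR161 (−1.52), ZBTB47 (−1.48) and MAVS, the adaptor of RNA sensors (−1.43), all with groups that did not overlap. Their promoter ratios ran from 1.32 for ATP1B1 to 1.61 for MADD.

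Promoter members in the other gene lists were few and went both ways. FOXA1, a pioneer factor of liver and other epithelia, had the largest ratio of them, 1.87, with 8.28 and 6.999 with sorafenib and 4.33 and 3.85 with DMSO. The tallest points of its peaks lay 904 to 927 bases after the start. The region touched the promoter window, but these values were measured inside the gene. FOXA1 RNA was lower, at 238, 255 and 233 with sorafenib and 361, 382 and 381 with DMSO (log2 change −0.63 ± 0.09 SE, limma adjusted p = 1.14e-05). UHRF1, which brings DNMT1 to newly copied DNA, fell by 0.78 on the log2 scale at a promoter ratio of 1.37. Of the NRF2 antioxidant genes, GCLM, a subunit of glutathione synthesis, fell by 0.63 and TXNRD1, thioredoxin reductase, fell by 0.43. In that list 15 of 16 tested genes fell and 1 rose, beside 35.8% lower and 34.4% higher over all genes tested. BHLHE40, a repressor induced by hypoxia, rose by 1.27 at a ratio of 1.304. TRIB3, a pseudokinase of the amino acid response, had a log2 change of −0.07 that did not pass the test (limma adjusted p = 0.365).

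Across 15 lists holding 245 genes, 163 genes had a promoter in a shared region, 14 of them at a member and 20 at a less enriched region. Over all 10799 genes of the RNA tables with a promoter in a shared region, 4.97% were at a member and 11.1% at a less enriched region. Of the listed genes, 37 had a member within 2 kb of the gene's span. Such links to a member were found for 2773 genes in all, and 13537 tested genes had a RefSeq span. These counts may cover unlike sets of genes, so they give no share to set beside the 37. Without such a share the 37 are not read as a result about the listed genes. The lists of ERK feedback genes, metallothionein and zinc genes, replication-dependent histones, p53 targets, sterol synthesis genes and YAP and TEAD targets had no member at a promoter. Several of them still changed in RNA: 17 of 17 tested histone genes rose, 9 of 10 metallothionein and zinc genes rose and 20 of 20 sterol synthesis genes fell. Over all genes tested 34.4% were higher and 35.8% lower with sorafenib.

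The genes in the title of the series stood in different classes. KLF4 was at a member, as above. DNMT1, the maintenance DNA methyltransferase, had a shared promoter region with 10.9 and 11.6 with sorafenib and 11.9 and 16.0 with DMSO, a ratio of 0.807 that met neither rule, and its RNA log2 change of −0.06 did not pass the test (limma adjusted p = 0.328). No region with a peak in all libraries touched the promoter windows of MT1G and CA9. At CA9, a carbonic anhydrase, Sorafenib 3 alone had a peak, with a fold enrichment of 4.95. MT1G RNA was 189, 158 and 194 with sorafenib and 0 in each DMSO library, at least 56.7-fold higher against a floor of 3 reads per library. CA9 RNA was 3.38, 9.97 and 1.07 with sorafenib and 245, 426 and 176 with DMSO.

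With MT1G overexpression, 407 of the 512 genes at member promoters were tested, and 72 rose (17.7%) and 54 fell (13.3%). Over all 13914 genes tested 11.5% rose and 11.3% fell, and over the 9135 with a promoter in a shared region 12.9% rose and 11.8% fell. At promoters of less enriched regions, 10.8% of 889 tested genes rose and 17.5% fell. A rise of at least 1 on the log2 scale was called in 15 of the 407 genes (3.69%), beside 1.55% of tested genes with a promoter in a shared region and 2.08% of all genes tested. With members chosen without each ATAC library in turn, the share that rose lay between 16.9% and 19.1%. Without Vec 2 the number of linked genes that fell was 31 (7.62%, beside 5.74% of tested genes with a promoter in a shared region), and without Vec 3 it was 33 (8.09%, beside 5.30%).

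IFIT3, an antiviral protein induced by interferon, changed most among the named genes at member promoters. Its RNA averaged 2568 ± 399 normalized read counts in MT1G-OE cells and 102 ± 8.06 in Vec cells (SD, n = 3 each; log2 change 4.63 ± 0.11 SE, limma adjusted p = 2.35e-17). With sorafenib, IFIT3 RNA was 326, 351 and 342 against 188, 211 and 164 with DMSO, and its promoter had 6.52 and 6.44 against 3.67 and 3.85. KLF4 averaged 429 ± 27.0 in MT1G-OE cells and 58.3 ± 4.76 in Vec cells (SD, n = 3 each; log2 change 2.86 ± 0.14 SE, limma adjusted p = 3.68e-12). TRAF1 rose by 1.31, PTHLH by 1.002 and KLF6 by 0.42, while EGR1, FOS and CXCL1, with log2 changes of 0.33, 0.76 and 0.67, did not pass the test. Other genes moved against their sorafenib direction: AMIGO2 rose by 1.25 and IL11 by 0.85, and SLC44A2 fell by 0.96 and EDN1 by 0.60.

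Promoter windows of the 660 symbols at members were rich in G and C, with a median of 68.0% and 29 CG pairs, against 62.0% and 17 at less enriched regions, 65.3% and 26 at all shared regions, and 58.3% and 14 in the whole RefSeq table of 27305 symbols. The GC box GGGGCGGGG stood in 28.5% of member windows, 21.1% of less enriched ones and 26.5% of all shared ones, beside 16.0% of the table. The AP-1 letters TGANTCA stood in 7.42% of member windows and 12.9% of less enriched ones, with 6.64% of all shared ones and 7.76% of the table. For the NF-kB core GGNANTTCC the shares were 6.67% for members, 5.15% for less enriched, 6.10% for all shared and 5.12% for the table. The CArG box stood in 1.52% of member windows, 1.80% of less enriched ones, 1.07% of all shared ones and 1.29% of the table. The short CRE word TGACG stood in 28.2% of member windows, 27.5% of less enriched ones, 34.7% of all shared ones and 25.01% of the table. CCAAT, bound by NFY, stood in 28.2% of member windows, 34.4% of less enriched ones, 36.7% of all shared ones and 35.7% of the table. The ETS letters CCGGAAG stood in 13.6% of member windows, 12.6% of less enriched ones, 19.0% of all shared ones and 10.7% of the table. These are some of the 28 patterns searched. A match gives letters only. The windows differ in base composition as given above, and its part in these shares was not tested.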

How the data were processed

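The members, gene lists and comparisons were chosen with earlier results of these data known. The deposited narrowPeak lists give, for each peak, a score, a fold enrichment over local background and −log10 p and q values, in the columns that MACS2 writes, with 1 list per library. The authors' RNA values are normalized read counts (a signal) in the deposited tables. The submitters' processing notes name hg38, cutadapt, Bowtie2 2.4.1, MACS2 2.2.7.1, HISAT2, featureCounts 1.6.1 and DESeq2, without their order. Any scaling of the folds between libraries, the ATAC read depth, the shift of reads for the transposase and the strand setting of the counting are not given in the sources used here, so overlapping genes on opposite strands may share reads.

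Peaks sharing 1 bp were merged, and the highest fold per library was kept. Regions were linked to RefSeq promoter windows (GRCh38.p14); 70.9% of the 14915 tested genes had one, and chromosome 8, with 205 members, was not used for links. Tests were two-sided limma 3.58.1 models with trend and robust variance on log2(normalized read count + 1), for genes averaging 10 or more, with Benjamini-Hochberg adjustment over all genes tested and a threshold of 0.05. Fold changes are on that log2 scale and understate those of low genes. In the sorafenib table, values were in 100% of cases whole multiples of 1 read (tolerance 0.001), and DESeq2 1.42.0 and edgeR 4.0.16 were run on those reads as alternatives. The fit was tested on simulated data. Named were the 10 members with the largest ratio, the 5 nearest to the threshold on each side, the 5 with the highest sorafenib mean, the 10 largest rises and falls among linked genes averaging 100 or more whose groups did not overlap, the genes of the title, and listed genes at members. Alternatives changed the q threshold, the overlap, the scaling, the ratio, the link, the pseudocount, the filter, the size factors and each library in turn. The edgeR fit, the counts at a log2 change of at least 1 and the linked counts without each ATAC library were added after seeing the data.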

Additional observations from a re-analysis of the deposited data

How the results depend on the processing

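The number of members, 5006, moved to 19359 when each library was divided by its median over shared regions and to 2639 at a ratio threshold of 1.5. It stayed within 1.5 times the reported number at a threshold of 1.2 (6908), with peaks at −log10 q of at least 5 (4056), with merging only at an overlap of 0.5 of the shorter peak (5003) and with equal numbers of top peaks (4507). Without each ATAC library in turn it ran from 5897 to 11895, the highest without DMSO 2.

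Linking by gene span within 2 kb gave 543 genes higher and 678 lower with sorafenib, 230 and 141 by at least 1 on the log2 scale, and 291 higher and 195 lower with MT1G overexpression, 65 higher by at least 1. The shares within 2 kb were 32.3% higher, 40.4% lower and 8.39% lower by at least 1 with sorafenib, beside 33.3%, 38.3% and 6.63% of tested genes linked in the same way to any shared region. With MT1G overexpression they were 18.2% higher and 12.2% lower, beside 12.6% and 12.2%. Within 10 kb the same counts were 709, 887, 294, 175, 340, 282 and 71. With members chosen after scaling by the library median they were 1396, 1484, 461, 211, 629, 385 and 77. These links cover more genes: the share that rose by at least 1 with sorafenib was 13.7%, 13.3% and 11.6%, beside 11.5%, 11.8% and 10.1% of tested genes linked in the same way to any shared region.

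Leaving out each RNA or ATAC library in turn, genes higher with sorafenib ran from 95 to 524 and lower from 122 to 568, and by at least 1 from 39 to 192 higher and 31 to 92 lower. In the MT1G-OE comparison, 50 to 255 were higher, 31 to 169 lower and 13 to 39 higher by at least 1. The highest of each came without ATAC DMSO 2. Without ATAC DMSO 1 the genes higher with sorafenib were 95 of 288 tested (33.0%), beside 33.5% of tested genes linked to any shared region, so the difference of 37.2% against 33.6% was not seen with that choice. DESeq2 called 142 higher and 151 lower with sorafenib, and edgeR 161 and 156. Counts under the other RNA settings that kept all libraries stayed within 1.5 times. DESeq2 was not run on the MT1G table. No paired analysis was possible because the RNA columns are numbered treatment and control and are not tied to the titles' replicate numbers, and the ATAC groups share none. The cause of each movement was not tested. ATAC read depth is unknown, which leaves the counting error of each fold enrichment unknown.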
